A study of Mus musculus with 36 samples.

Results

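In the Ikaros line of the B3 pre-B cell system, DNase I accessibility after 2 h of drug was compared with that of the same line at 0 h. The comparison rests on 6 of the 36 libraries, the 3 labelled Ikaros 2h and the 3 labelled Ikaros 0h, chosen by label alone, and it takes in all 52788 DNase hypersensitive sites (DHS) of the table. Both groups are B3 cells, a mouse pre-B lymphocyte line, transduced with an MSCV retroviral vector for haemagglutinin-tagged wild-type Ikaros fused to the ERt2 hormone-binding domain and followed by an IRES and GFP (HA-Ikaros-ERt2-IRES-GFP). The 2 h cells received 0.5 µM 4-hydroxytamoxifen (4-OHT), the ligand that lets the fusion enter the nucleus, 2 h before collection. For the 0 h cells the sources differ, since the labels name 4-OHT for them too while the study's methods state that they received none and were obtained on separate occasions. Time and occasion of collection therefore cannot be told apart in any value below. The replicates, numbered 4, 5 and 6 in batches 11, 12 and 13 at both times, are cultures of 1 transduced cell line. The Control line, B3 cells given the same drug for the same times, carries what the study calls an empty vector. By its methods that MSCV vector holds ERt2, IRES and GFP without Ikaros. This line is shown beside the results, and its 0 h cells were collected separately as well.

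Ikaros, the product of Ikzf1, is a zinc-finger transcription factor of lymphocyte development that binds GGGAA-type sequences and works with chromatin remodellers and histone deacetylases such as the NuRD complex. In pre-B cells it restrains growth and favours the step from the cycling to the resting stage. DNase I cuts DNA where nucleosomes are absent or loosened, which is the case at active promoters, at enhancers and at sites held open by CTCF, a zinc-finger protein that marks loop anchors and insulators.

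Each value is the log2 of read density per DHS after the authors' scaling and noise correction. A DHS no more than 1000 bp from the start of an annotated transcript is called a promoter DHS here, which covers 13657 DHS or 25.9% of the table, and a DHS of at most 200 bp is called narrow. The 3 Ikaros 0 h libraries resembled each other less than the 2 h libraries did. Pearson's r across DHS was between 0.592 and 0.739 at 0 h and between 0.816 and 0.868 at 2 h. The median SD between replicates of a DHS was 0.34 at 0 h and 0.20 at 2 h, and from 6 h to 24 h it lay between 0.20 and 0.22 in this line. Within the 0 h group replicates 4 and 5 were the least alike (0.592), and replicate 6 had r of 0.727 and 0.739 to them. All 3 of the 0 h libraries were at least as close to some 2 h library as to one of their own group, with r to the 2 h libraries of 0.663 to 0.710 for replicate 4, 0.646 to 0.728 for replicate 5 and 0.766 to 0.858 for replicate 6. Counts that turn on 1 of these libraries are given with and without it.

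The sequences of 8 short DHS are printed first to show sites with and without the CTCF core, which most but not all of the sites named below as higher at 2 h held. All are read from GRCm38 (mm10) on the plus strand, 5′ to 3′, from the first to the last listed position, and capitals mark a match to the core of the CTCF motif, 12 positions of which 2 are free and 2 allow a choice of letters. Sites around Afap1, Gm3045 and Tmem232 were higher at 2 h and hold it, and the site of Gsdme was higher without it. The site at the Cdk9 promoter was lower at 2 h. Those near Fam89a, Dmkn and Stk11 are sites where the step differed between the lines. The first 5 were chosen after their values were seen.
Afap1 (chr5:35971977-35972119): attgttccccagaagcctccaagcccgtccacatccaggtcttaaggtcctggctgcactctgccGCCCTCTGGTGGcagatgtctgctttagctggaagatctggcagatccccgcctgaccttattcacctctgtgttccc
Gm3045 (chr13:56422434-56422582): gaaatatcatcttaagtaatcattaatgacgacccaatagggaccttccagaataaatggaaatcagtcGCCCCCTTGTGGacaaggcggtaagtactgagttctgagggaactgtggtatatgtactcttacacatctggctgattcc
Tmem232 (chr17:65541134-65541275): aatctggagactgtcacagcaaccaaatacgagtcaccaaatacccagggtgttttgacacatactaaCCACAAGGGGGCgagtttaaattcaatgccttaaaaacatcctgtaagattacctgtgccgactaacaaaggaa
Gsdme (chr6:50220962-50221118): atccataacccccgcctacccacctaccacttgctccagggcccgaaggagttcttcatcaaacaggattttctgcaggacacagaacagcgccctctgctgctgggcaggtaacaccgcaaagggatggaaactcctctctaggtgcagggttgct
Cdk9 (chr2:32712089-32712211): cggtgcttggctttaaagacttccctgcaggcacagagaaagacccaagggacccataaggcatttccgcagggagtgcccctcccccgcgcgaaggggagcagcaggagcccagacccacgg
Fam89a (chr8:124739378-124739513): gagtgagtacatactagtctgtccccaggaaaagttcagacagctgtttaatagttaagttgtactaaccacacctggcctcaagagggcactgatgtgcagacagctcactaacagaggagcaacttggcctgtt
Dmkn (chr7:30758882-30759022): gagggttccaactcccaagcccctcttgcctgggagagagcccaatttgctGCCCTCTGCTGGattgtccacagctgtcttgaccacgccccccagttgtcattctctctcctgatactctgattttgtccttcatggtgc
Stk11 (chr10:80114673-80114759): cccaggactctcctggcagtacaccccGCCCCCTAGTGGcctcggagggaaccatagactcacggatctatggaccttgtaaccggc

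Across all DHS the step from 0 h to 2 h was small in the centre and wide in the tails, with a median difference (2 h minus 0 h) of 0.02 and a range from the 5th to the 95th percentile of -0.52 to 0.82. When the 12 groups shared 1 spread over 36 libraries, limma called 0 DHS at an adjusted p under 0.05, which is 0% of the table. The lowest adjusted p was 0.0610, shared by 11 DHS, and 92 DHS lay under 0.1. At an unadjusted p under 0.05 there were 4235 DHS higher at 2 h, 8.02% of the table, and 2903 lower, 5.5%. The 3 values at 2 h all lay above the 3 at 0 h in 5144 DHS (9.74%) and all below them in 5984 (11.3%). When limma was fitted to the 18 Ikaros libraries alone, in which the groups from 2 h on vary less, it called 889 DHS higher at 2 h (1.68%) and 470 lower (0.89%). That fit pools the spread of its groups, with a median SD of 0.34 at 0 h and 0.20 to 0.22 later. It understates the spread at 0 h, so its p-values, here and below, may be too low. Without Ikaros 0 h replicate 6 the shared fit called 566 DHS, 494 higher and 72 lower, without replicate 5 it called 2, and without replicate 4 it called 0. The count of calls thus moved with the libraries in the fit, and no single DHS is called changed below unless the fit is named.

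Promoter DHS were lower at 2 h and the other DHS were slightly higher. The median difference was -0.17 over promoter DHS, of which 74.1% were lower, and 0.12 over the DHS outside promoters. Exon, intron and intergenic DHS stood close together, with medians of 0.09, 0.12 and 0.12. Of promoter DHS, 12.6% were lower and 1.88% higher at an unadjusted p under 0.05. Outside promoters the order was the other way, with 3.01% lower and 10.2% higher. Among the calls of the fit to the Ikaros libraries alone, promoter DHS made up 4.72% of those higher and 59.1% of those lower.

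The same shift was seen library by library. The median promoter level minus the median level of the other DHS was 1.00, 0.997 and 1.11 (log2) in 0 h replicates 4, 5 and 6. At 2 h it was 0.687, 0.723 and 0.794. All 3 libraries at 0 h lay above all 3 at 2 h, and the means differed by -0.30 (exact permutation test, two-sided p = 0.1, the smallest that 3 against 3 libraries can give). Within batches 11, 12 and 13 the difference was -0.32, -0.27 and -0.32. In the Control line the same measure went from 0.446, 0.692 and 0.339 at 0 h to 1.03, 0.603 and 0.705 at 2 h. Those groups overlapped, with a difference of 0.29 (exact permutation p = 0.2) and batch values of 0.58, -0.09 and 0.37. The difference between the changes of the lines, -0.59, had an exact permutation p of 0.1 over 3 batch values a line. The later Ikaros groups (6, 12, 18 and 24 h) had means of 0.80, 0.53, 0.71 and 0.57.

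**Figure D1:**
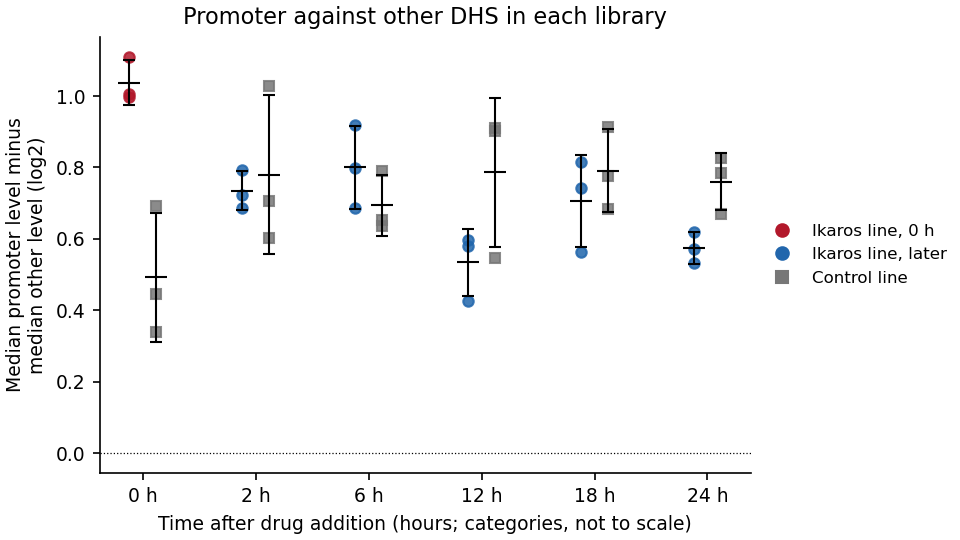
Median level of promoter DHS minus that of all other DHS (log2) in each of the 36 libraries, by hour and line; bars are the group mean and SD (n = 3). The 3 Ikaros 0 h libraries, at 0.997 to 1.11, sit above every other library of that line, and 2 of the 3 Control 0 h libraries, at 0.339 and 0.446, sit below every other library of theirs.

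Promoter DHS are rich in G and C, and the step followed GC content inside and outside promoters. In the quintile of promoter DHS with the lowest GC content (up to 51.1%) the median difference was 0.05, and in the quintile with the highest (from 66.3%) it was -0.31. Outside promoters it went from 0.29 in the lowest quintile (up to 42.6%) to -0.03 in the highest (from 53.4%). After trends with mean level, GC content and width were taken out of each library, the median over promoter DHS was -0.024, and after quantile normalization it was -0.061. The promoter shift thus moved with GC content and signal range, whose part in it was not tested. The SD over DHS within a library was 1.05, 0.966 and 0.854 at 0 h and 0.743, 0.692 and 0.713 at 2 h, so signal at 0 h also spread over a wider range.

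**Figure D2:**
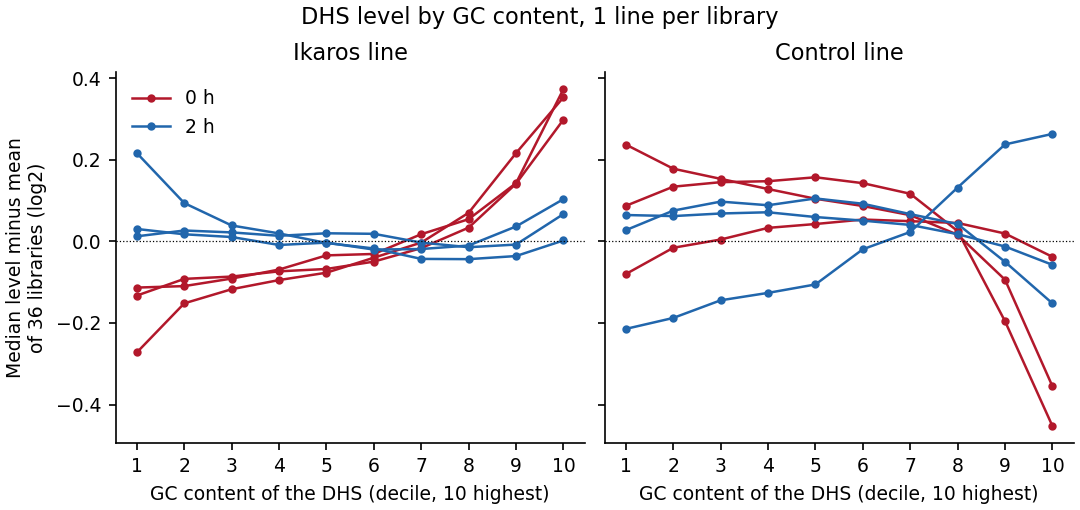
Median level of a DHS relative to its mean over 36 libraries (log2) by decile of GC content, 1 line for each library of the Ikaros line (left) and the Control line (right), red for 0 h and blue for 2 h. In the Ikaros line all 3 libraries at 0 h climb with GC content and end above the 2 h libraries; in the Control line the 0 h libraries end below them or between them.

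The DHS that were higher at 2 h were rich in the CTCF core. This motif was looked for after the sequences of the sites with the lowest p had been read. Outside promoters, 8998 of 39131 DHS (23.0%) held it in their central 150 bp on either strand. It was present in 1819 of the 3978 sites higher at an unadjusted p under 0.05 (45.7%) and in 42 of the 1179 sites lower (3.56%). Wide sites showed 55.3% among the higher, 3.66% among the lower and 27.4% among all, and narrow sites 37.3%, 3.19% and 19.1%. Promoter DHS held the core less often, in 5.58%, but again in 29.6% of those higher and 2.03% of those lower. Among the calls of the fit to the Ikaros libraries alone, 455 of 847 sites outside promoters that were higher held it (53.7%), against 5 of 192 that were lower (2.6%).

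Read the other way, the median difference outside promoters was 0.34 in DHS with the core and 0.04 in DHS without it. Inside promoters the medians were 0.16 with it and -0.19 without it, so the gap was of like size (0.30 and 0.34). Of the sites outside promoters with the core, 83.6% were higher at 2 h, against 54.5% of those without. GC content was close in these sets outside promoters, with medians of 47.2% and 48.3%. Inside promoters it was 50.2% with the core and 59.5% without, and its part in the promoter gap was not tested. In the Control line the median change inside promoters was 0.02 with the core and 0.21 without it. Unlike the promoter shift, the gap outside promoters lay between 0.25 and 0.32 in every alternative tried, of which those that alter only the fit cannot move it, and was 0.26 both after the trends with level, GC and width were removed and after quantile normalization.

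**Figure D3:**
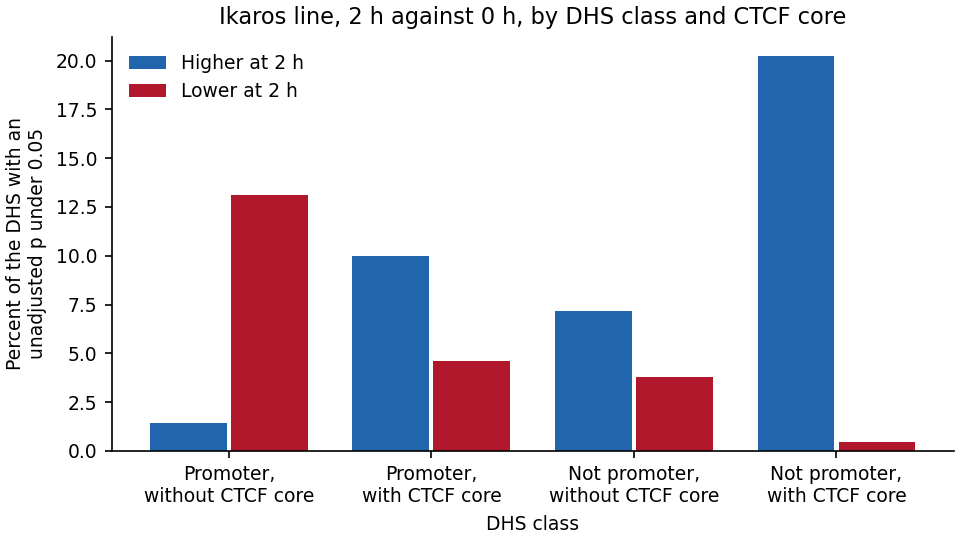
Percent of DHS in each class that were higher (blue) or lower (red) at 2 h in the Ikaros line at an unadjusted limma p under 0.05, with and without the CTCF core. Promoter DHS without the core are mostly lower (13.1% against 1.40%), and DHS outside promoters with it are mostly higher (20.2% against 0.467%).

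In each Ikaros 0 h library the DHS with the core were below those without it. The median level outside promoters with the core minus that without was -0.249, -0.201 and -0.248 in 0 h replicates 4, 5 and 6. At 2 h it was 0.128, 0.00798 and 0.00376. No 0 h library reached the 2 h range, and the means differed by 0.28 (exact permutation p = 0.1, the smallest possible), with 0.38, 0.21 and 0.25 in batches 11, 12 and 13. In the Control line the values were 0.158, -0.0622 and 0.122 at 0 h and -0.163, 0.197 and 0.175 at 2 h. These overlapped, with a difference of -0.0026 (exact permutation p = 1.0) and batch values of -0.32, 0.26 and 0.05. The change in Ikaros exceeded that in Control by 0.28, which did not separate from the spread of the batch values (exact permutation p = 0.3). From 6 h to 24 h the Ikaros group means lay between -0.01 and 0.16, and the Control means of those hours between 0.15 and 0.18. Against Control at the same hour, DHS with the core had a median difference of -0.42 at 0 h and 0.01 at 2 h, and those without it -0.11 and 0.03.

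**Figure D4:**
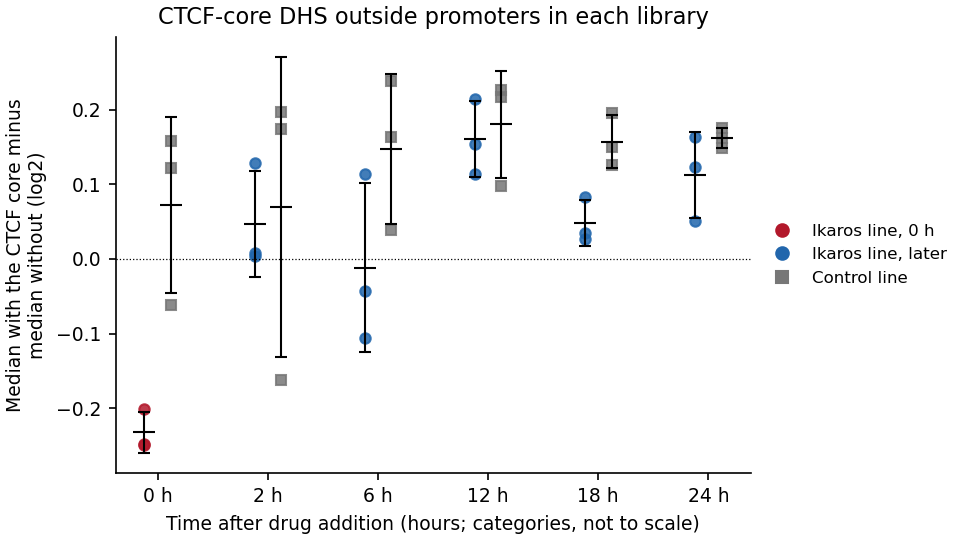
Median level of DHS outside promoters with the CTCF core minus the median without it (log2) in each of 36 libraries, by hour and line; bars are the group mean and SD (n = 3). The 3 Ikaros 0 h libraries lie at -0.249 to -0.201, below every other library in the plot, of which the lowest is a Control 2 h library at -0.163.

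The 9 short motifs listed for this comparison differed less, in percentage points, between the higher and lower sites outside promoters. TGGGAA, which holds the GGGAA core of Ikaros sites, was found in 13.6% of DHS outside promoters, 12.2% of those higher and 15.4% of those lower (unadjusted p under 0.05). In promoters the shares were 11.8%, 14.4% and 13.0%. GGGCGG, the GC box of Sp family factors, was in 41.7% of promoter DHS, 5.06% of those higher and 55.4% of those lower, and promoter DHS with it had a median GC content of 63.5% against 55.1% without. In promoters GGGCGG thus differed more than the CTCF core, which was in 29.6% of the higher and 2.03% of the lower. The Ets core CCGGAA was in 18.9% of promoter DHS, 6.61% of the higher and 20.4% of the lower. Outside promoters GGGCGG was in 5.04% of DHS, 2.41% of the higher and 13.3% of the lower, and CCGGAA in 3.38%, 1.61% and 7.63%. CAGGTG, an E-box that can share letters with the CTCF core, was in 14.2% of DHS outside promoters, 17.4% of the higher and 11.7% of the lower. TGTGGT, the Runx core, was in 21.3% of DHS outside promoters, 18.0% of the higher and 21.9% of the lower, and CACGTG, the E-box that Myc binds, in 3.37%, 2.54% and 4.66%. TGACTCA (AP-1), TGTTTAC (forkhead) and AGGTCA (nuclear receptors) were in 4.14%, 1.79% and 9.04% of DHS outside promoters and in 2.87%, 1.99% and 8.57% of the higher ones. GGGCGG and TGTGGT can also share letters with the CTCF core. A match says that these letters are present in either strand of the central 150 bp, and not that a factor is bound.

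Single sites with the lowest p are described next, chosen after their values were seen among those whose groups do not overlap. Of the 6 sites higher at 2 h, 4 held the CTCF core, against 23.0% of all DHS outside promoters. The core was looked for after the sequences of sites with the lowest p had been read. That count is therefore no independent evidence. The site in an intron of Afap1, which encodes an actin filament-associated protein, had levels of 2.65, 2.72 and 3.89 at 0 h and 4.80, 4.89 and 4.98 at 2 h. Its 0 h values were low and uneven, with replicate 6 nearest to the 2 h libraries. The difference was 1.80 (SE 0.32, limma adjusted p = 0.0610), a level 3.49-fold higher at 2 h. The intergenic site nearest Gm3045 had 2.50, 2.97 and 3.23 at 0 h and 4.22, 4.24 and 4.72 at 2 h, a difference of 1.49 (SE 0.28). The exonic site of Gsdme, a gasdermin, at chr6:50220962-50221118 had 3.22, 3.03 and 3.57 at 0 h and 4.28, 4.77 and 4.48 at 2 h, a difference of 1.24 (SE 0.21) without a match to the core. At all 3 sites the Ikaros groups did not overlap, and every Control library of both hours lay above every Ikaros 0 h library. Sites in introns of Sytl3 (a synaptotagmin-like protein) and Trappc12 (a subunit of the TRAPP trafficking complex) and one near Txnl1 had differences of 1.66, 1.36 and 1.10. For these 6 sites the adjusted p of the fit to the Ikaros libraries alone lay between 0.00481 and 0.0141, and over all their alternatives it ran from 0.000682 to 0.481.

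The 6 sites lower at 2 h with the lowest p held no CTCF core, which was likewise looked for after such sequences had been read. The intergenic site nearest Dnajb12, at chr10:59909422-59910014, had 5.45, 5.64 and 5.49 at 0 h and 4.63, 4.70 and 4.83 at 2 h. The difference was -0.81 (SE 0.15, limma adjusted p = 0.0610). The promoter of Rasal1, a Ras GTPase-activating protein, had 5.88, 5.19 and 5.45 at 0 h and 4.73, 4.62 and 4.54 at 2 h, a difference of -0.88 (SE 0.17, limma adjusted p = 0.0694). Control libraries at the Rasal1 promoter were at 4.60, 4.59 and 4.63 at 0 h, level with Ikaros at 2 h, and at 5.53, 4.85 and 5.19 at 2 h. The sites in introns of Arhgef17 and Rnf220, in an exon of Gm13025 and near AC141471.6 had differences of -0.84, -0.58, -0.78 and -1.12. In the fit to the Ikaros libraries alone the 6 adjusted p-values lay between 0.00674 and 0.0197, and over all alternatives between 0.00674 and 0.496.

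**Figure D5:**
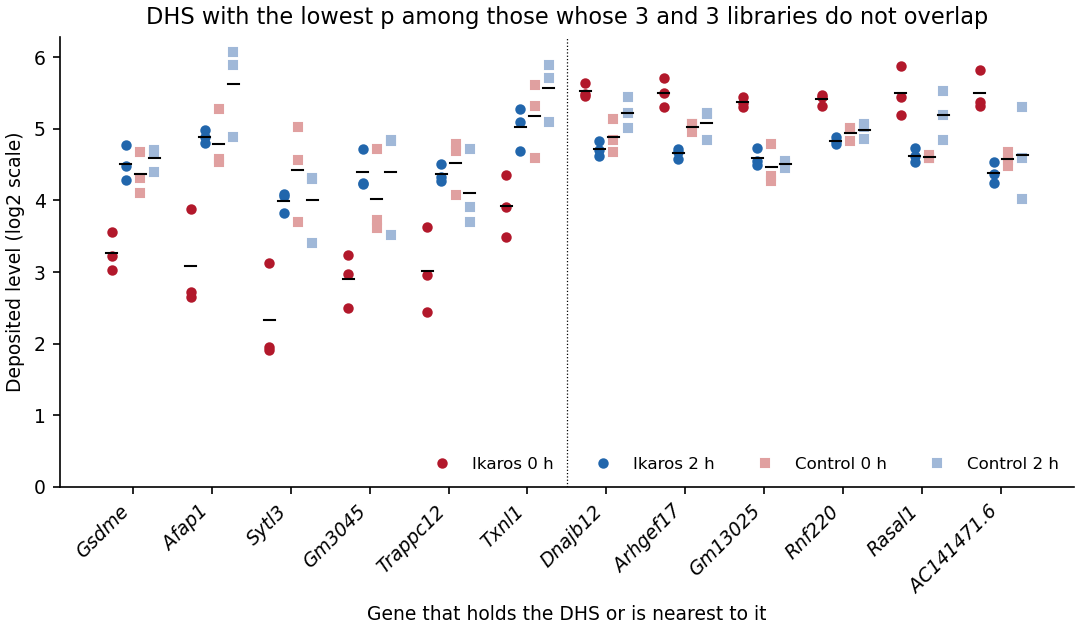
Deposited level (log2 scale) in each library at the 6 higher (left of the dotted line) and 6 lower DHS with the lowest p, circles for the Ikaros and squares for the Control line, short bars for means of 3. Ikaros 0 h libraries stand apart from Ikaros 2 h libraries at all 12, by construction, and at the 6 higher DHS every Control library lies above every Ikaros 0 h library.

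Among promoters of protein-coding genes, the 5 lower sites with the lowest p were at Rasal1, Hdac1, Cdk9, Pbx3 and Ssbp4. The promoter of Hdac1, the histone deacetylase of the NuRD complex, had 5.58, 5.47 and 5.55 at 0 h and 4.60, 4.82 and 4.76 at 2 h. The difference was -0.81 (SE 0.17, limma adjusted p = 0.0807), a level 1.75-fold higher at 0 h than at 2 h. The site at Cdk9, the kinase that releases paused RNA polymerase II, had 5.87, 5.95 and 5.90 at 0 h and 5.14, 5.05 and 5.44 at 2 h, a difference of -0.70 (SE 0.15). The promoter sites of Pbx3, a homeodomain partner of Hox proteins, and of Ssbp4 had differences of -0.75 and -1.23. In the last 4 of these the fit to the Ikaros libraries alone gave adjusted p-values of 0.00895 to 0.0193, with a range over the alternatives of 0.00895 to 0.496.

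On the higher side 4 of the promoter sites with the lowest p are described, and 3 of them held the CTCF core. Over all promoter DHS 5.58% held it. As the core was looked for after sequences of sites with the lowest p had been read, this count is no independent evidence. The site 352 bp from the Tmem232 start had 1.46, 2.19 and 3.39 at 0 h and 4.36, 4.31 and 3.92 at 2 h, a difference of 1.85 (SE 0.45, limma adjusted p = 0.114). All 3 values at 2 h lay above those at 0 h, of which replicate 6 was the nearest. The sites at Tnr (tenascin R), 1700069L16Rik and Praf2 had differences of 1.34, 0.82 and 0.89, and the last of these had no match to the core. The limma adjusted p of the 4 ran from 0.102 to 0.148, and over all their alternatives from 0.00842 to 0.558.

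Gene groups were read at their promoters from 16 lists, 11 of pathways and complexes of growing pre-B cells and 5 of cell type markers, all drawn up with earlier results of these data known. Of the 250 genes of all lists together, 186 had a promoter DHS, 258 sites in all, of which 0 were called, 43 were lower and 0 higher at an unadjusted p under 0.05. Over all DHS these shares were 5.5% and 8.02%, and over all promoter DHS 12.6% and 1.88%. The fit to the Ikaros libraries alone called 7 of the 258 sites lower and 0 higher. All list medians were negative, as was the median over all promoter DHS (-0.17), so a negative median says nothing particular about a list.

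Glycolysis had the lowest median among the lists of more than 10 sites, -0.34 over 26 promoter DHS of 16 genes. Of these, 24 were lower at 2 h, 7 at an unadjusted p under 0.05, and 12 had groups that did not overlap. Over all promoter DHS 74.1% were lower, 12.6% at that threshold, and 3421 of 13657 did not overlap on the lower side. In the quintile of promoter DHS with the highest GC content the median was -0.31. The part of GC content in the list median was not tested. The promoter of Eno1, the enolase of glycolysis, had 5.53, 5.50 and 5.66 at 0 h and 4.83, 4.98 and 5.01 at 2 h, a difference of -0.62 (SE 0.16, limma adjusted p = 0.115), and was called in the fit to the Ikaros libraries alone. The promoter of Pgam1, phosphoglycerate mutase, had 6.12, 6.09 and 6.08 at 0 h and 5.51, 5.69 and 5.64 at 2 h, a difference of -0.48. All 27 promoter DHS of the immediate early genes were lower, with a median of -0.27 and 5 at an unadjusted p under 0.05. The 15 of heat shock genes and chaperones had a median of -0.29, and 12 of them were lower. Of 28 cell cycle sites 25 were lower (median -0.27), among them Cdkn1a, which encodes the inhibitor p21, with a difference of -0.65.

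Lists tied to pre-B identity and its receptors had less negative medians. Over all promoter DHS the median was -0.17, and 12.6% were lower at an unadjusted p under 0.05. Lower sites in a list are thus not by themselves particular to it. The pre-B receptor and its signalling chain had a median of -0.13 over 20 sites of 13 genes, 18 of them lower and 1 at an unadjusted p under 0.05. B-lineage transcription factors had -0.18 over 25 sites, with 2 lower at that threshold, at Pax5 (-0.40) and Irf8 (-0.50). The interleukin 7 receptor pathway, which drives growth of early B cells, had -0.16 over 21 sites, with 4 lower at that threshold, at its feedback inhibitors Socs2, Socs3 and Cish (-0.59, -0.74 and -0.43) and the kinase gene Pim1 (-0.52). Recombination and end joining had -0.05 over 10 sites, 5 higher and 5 lower. Ribosome biogenesis with Myc had -0.17 over 24 sites and ribosomal proteins -0.19 over 32. The co-repressor and remodelling subunits that work with Ikaros had -0.27 over 21 sites, with 5 lower at an unadjusted p under 0.05, of which Hdac1 was the lowest. In the Control line the medians of these lists were positive, between 0.14 and 0.42, in the same table.

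Of the 8 marker genes of the response, given whatever their values, 7 had promoter DHS and Ikzf1, described further on, had none. In the shared fit limma called 0 of these sites, and 3 were lower at an unadjusted p under 0.05, at Myc, Hk2 and Slc7a5. Myc, which drives growth and glycolysis, was nearest: its promoter DHS (chr15:61985170-61985735) had 5.26, 5.04 and 5.41 at 0 h and 4.66, 4.70 and 4.79 at 2 h. The groups did not overlap. The difference was -0.52 (SE 0.14, limma adjusted p = 0.138), with 0.0400 in the fit to the Ikaros libraries alone and up to 0.512 over the alternatives. Igll1, the surrogate light chain gene, had 5.07, 5.47 and 5.57 at 0 h and 4.86, 5.14 and 5.08 at 2 h, a difference of -0.35 (SE 0.20, limma adjusted p = 0.456). Slc7a5, an amino acid transporter gene, had 4.87, 5.23 and 5.12 at 0 h and 4.77, 4.50 and 4.71 at 2 h, a difference of -0.41 (SE 0.18). Its groups did not overlap, while those of Igll1 did. Over all promoter DHS 12.6% were lower at an unadjusted p under 0.05, and the groups of 3421 of 13657 did not overlap on the lower side.

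The other markers showed no separation at most sites. Hk2, hexokinase 2, had differences of -0.73 and -0.26 at 2 promoter DHS, and at the first of them the 2 h values of 4.33, 3.72 and 5.02 reached into the 0 h range. Ldha, lactate dehydrogenase A, had -0.24 at both of its DHS, and Foxo1, a forkhead factor that rises with pre-B differentiation, had -0.24. Lig4, the ligase of end joining, had 0.01 and 0.04 at its sites over the start and 0.83 (SE 0.54) at a narrow site 801 bp away, where the 2 h values of 4.57, 4.78 and 5.22 lay above the 0 h values of 4.18, 4.26 and 3.65. The limma adjusted p of these sites was between 0.322 and 0.983.

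Ikzf1, the gene of Ikaros itself, had no promoter DHS in the table but 14 DHS within its body, 6 of them in exons. Exonic sequence of this gene is also carried by the vector, and reads from the gene and the vector cannot be told apart. The mean level of the 6 exonic DHS was 5.61, 4.98 and 4.98 in Ikaros 0 h, and 4.41, 4.51 and 4.48 in Ikaros 2 h. In the Control libraries it was 2.08, 3.34 and 3.09 at 0 h and 2.65, 2.56 and 2.46 at 2 h. All 12 libraries thus matched the line on their label. From 0 h to 2 h all 6 exonic sites had negative differences, from -0.90 to -0.51, 3 of them at an unadjusted p under 0.05 and 0 called (limma adjusted p between 0.197 and 0.710). Over all exon DHS 40.4% were lower, 4.07% at that threshold. Of the 8 intronic sites 4 were lower and 4 higher.

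Markers of cell types were read as a check of the label. Of 12 B cell marker genes 10 had a promoter DHS, with a median level of 4.96 at 0 h and 4.94 at 2 h over 12 sites. Of these 10 were lower at 2 h, 2 of them at an unadjusted p under 0.05, and the median difference was -0.15. Over all promoter DHS 74.1% were lower, 12.6% at that threshold, with a median of -0.17. Promoter DHS were found for 4 of 13 T cell, 2 of 12 myeloid and progenitor, 3 of 9 erythroid and megakaryocyte and 0 of 10 non-blood marker genes. The defining genes Cd3e, Mpo, Gata1 and Alb were among those without. No such site was called, and of the other lineages Notch1 (-0.43) and Klf1 (-0.52) were lower at an unadjusted p under 0.05.

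Whether the step was particular to the Ikaros line was tested as the change in Ikaros minus the change in Control, over 12 libraries of 4 groups within the shared fit. Limma called 44 DHS (0.0834%), 19 with a positive and 25 with a negative difference of changes. With the replicate block 16 were called, 9 positive and 7 negative. In the Control line itself 159 DHS (0.301%) were called between 0 h and 2 h, 42 higher and 117 lower, and 89 with the replicate block (20 and 69). Fitted to their own groups only, limma called 0 DHS in the Control line and 0 for the difference of changes (2629 and 5514 at an unadjusted p under 0.05). The Control count was 1 with its line only and between 3, without Control 0 h replicate 6, and 934, without Control 2 h replicate 5, when 1 library was left out. The lines also started apart: between Ikaros and Control, 6787 DHS (12.9%) were called at 0 h and 103 (0.195%) at 2 h. These comparisons share libraries, so their values are given side by side and not as independent evidence. The count of 44 was unstable to single libraries. Without Ikaros 2 h replicates 4, 5 or 6 it was 2, 0 or 6, and without Ikaros 0 h replicates 4, 5 or 6 it was 3, 152 or 418. Without Control 2 h replicates 4, 5 or 6 it was 21, 1938 or 600, and without Control 0 h replicates 4, 5 or 6 it was 74, 1496 or 0.

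The 19 positive sites lay outside promoters without exception, 14 were narrow and 10 held the CTCF core. Of all 39131 DHS outside promoters 20823 were narrow and 8998 (23.0%) held the core. All 19 were higher at 2 h in Ikaros (median 0.89) and lower in Control (median -0.99). They were chosen by the difference of these changes, so opposite signs in the lines are favoured by the choice. The intergenic site 12319 bp from Fam89a had 2.84, 2.31 and 2.32 at Ikaros 0 h and 3.41, 4.16 and 3.43 at Ikaros 2 h. In Control it went the other way, from 3.96, 3.88 and 4.33 to 2.13, 2.09 and 2.60. The difference of changes was 2.97 (SE 0.47, limma adjusted p = 0.0136). The intronic site of Gm48651 had the most positive value, 4.09 (SE 0.64, limma adjusted p = 0.0136), but most of it was the Control change of -3.46, and its Ikaros groups overlapped, with a difference of 0.63. The site near Dmkn had 2.68 (SE 0.48), again with overlapping Ikaros groups.

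Of the 25 negative sites 20 were promoters, 2 were narrow and 2 held the CTCF core. Of all 52788 DHS 13657 (25.9%) were promoters and 24315 were narrow. All were lower at 2 h in Ikaros (median -0.59) and higher in Control (median 0.65). Here too the choice by the difference of changes favours opposite signs. The promoter of Kmt2a, the histone methyltransferase MLL1, had 5.99, 5.69 and 5.77 at Ikaros 0 h and 4.80, 4.66 and 4.95 at Ikaros 2 h. Control went from 4.15, 4.53 and 4.30 to 5.05, 5.19 and 4.46. The difference of changes was -1.59 (SE 0.31, limma adjusted p = 0.0384), and the Ikaros change alone was -1.01. The site near 2010008C14Rik had -1.75 (SE 0.36) and the one 1044 bp from the start of Stk11, the kinase LKB1, had -1.56 (SE 0.32), both with limma adjusted p = 0.0448. At Stk11 the Ikaros groups overlapped and the Control change of 1.13 made up most of the value. In the 44 sites together, the Ikaros change was larger in size than the Control change in 5 of the 19 positive and 12 of the 25 negative ones.

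The later hours of the Ikaros line are given for the sites at Afap1 and Hdac1. Between 2 h and 6 h limma called 0 DHS (0%), with 0 at an unadjusted p under 0.05, which is fewer than libraries without any difference would give by chance, so these p-values are not calibrated. The difference had a range from the 5th to the 95th percentile of -0.14 to 0.12. The mean at the Afap1 site was 3.09 at 0 h, 4.89 at 2 h and then 4.60, 5.58, 4.96 and 5.41 at 6, 12, 18 and 24 h. At the Hdac1 promoter it was 5.54, 4.73, 4.86, 4.31, 4.66 and 4.40 at the same hours. Each later mean of these sites stayed on the 2 h side of the 0 h mean. Both sites were chosen for their gap between 0 h and 2 h, and the noise correction models the groups. These means therefore cannot say whether a change lasted.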

How the data were processed

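DNase-seq was measured in 36 libraries, 3 in each of 12 groups of line and hour. As the methods describe, the authors shortened the reads, aligned them with Bowtie2 (mm10), called peaks of both narrow and broad type in each replicate with HOMER, merged these into consensus DHS, counted reads with bedtools, left out low DHS, scaled by RPKM and TMM and removed structured noise with ARSyN, a method that models the groups. The authors deposited values on a log scale, read here as log2, since base 2 gives library sums of 369487 to 432755 RPM, within what RPM can reach, and base e gives 1575615 or more. Counts were not used here, so depth is unknown, no counting interval is given, and the number of libraries limits the precision. As the correction models the groups, p-values may err in either direction; between Ikaros 6 h and 2 h 0 of 52788 DHS had an unadjusted p under 0.05, fewer than chance alone gives.

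Differences were fitted with limma 3.58.1 in R 4.3.3 (12 group means, 36 libraries, eBayes with a trend, two-sided, Benjamini-Hochberg over 52788 DHS, threshold 0.05), checked on simulated data, and library summaries were compared by exact permutation over 20 arrangements. In the simulation a DHS had the same spread in all groups, and no noise correction was run. It therefore cannot vouch for the p-values of groups that differ in spread. P-values measure the spread between cultures of 1 line. Sequences and GC content were read from GRCm38 with pyfaidx 0.9.0.4 in Python 3.11.15, and genes from GENCODE vM21 basic; whether listed starts count from 0 or 1 is not stated, which shifts a printed sequence by 1 base at most. Replicate numbers pair libraries through the batch number in the labels, although same-numbered Ikaros libraries deviated from their group means with r of 0.082, 0.032 and 0.021 only; the blocked fit is given where it moves a count. The members, gene lists and tests were chosen with earlier results of these data known. Sites were to be named by size among those past the threshold in the shared fit; as 0 passed, those with the lowest p and no overlap between groups were named after their values were seen, besides the fixed marker genes and, for the difference between lines, the 3 largest called in each direction. The CTCF core was added after the data were seen. The alternatives were other sets of libraries, a replicate block, a spread per group, quantile and median scaling, removal of trends, a pseudocount of 1, a filter on DHS under the 0.25 quantile of level, wide DHS only, a robust prior and each library left out; leaving out all libraries of a replicate number was added after seeing the data. Of the value columns, 0 were left unused.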

Additional observations from a re-analysis of the deposited data

Results flagged for a closer look

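The difference between the step in the Ikaros line and the step in the Control line passed the limma threshold at 44 DHS, and the 3 largest in each direction are listed for a closer look because that difference was itself tested. The positive ones were 4.09 in Gm48651, 2.97 near Fam89a and 2.68 near Dmkn (limma adjusted p = 0.0136, 0.0136 and 0.0317, and 0.00157 to 0.440 over all their alternatives). The negative ones were -1.75 near 2010008C14Rik, -1.59 at the Kmt2a promoter and -1.56 near Stk11 (limma adjusted p = 0.0448, 0.0384 and 0.0448, and 0.00638 to 0.440 over all their alternatives). In each of these the difference in Control had the opposite sign to that in Ikaros, which the choice by the difference of changes favours. Over the table limma called 6787 DHS between the lines at 0 h and 103 at 2 h. The separate collection of the 0 h cells in both lines cannot be told apart from time.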

How the results depend on the processing

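The median change over promoter DHS kept its sign in all alternatives tried but went from -0.17 to -0.061 with quantile normalization and -0.024 with trends removed; leaving out libraries gave -0.19 to -0.15. The gap outside promoters between DHS with and without the CTCF core was 0.30 in the shared fit. It lay at 0.25 to 0.32 in all of them, those that left out libraries included. The count of called DHS between 0 h and 2 h in the Ikaros line, 0 in the shared fit, was 0 with the replicate block too (6729 at an unadjusted p under 0.05), 1359 with the Ikaros libraries alone, 3 with quantile normalization, 158 with wide DHS only, and 0 to 566 when libraries were left out. In the gene lists 7 sites were called with the Ikaros libraries alone, 1 with wide DHS only and 0 to 1 when libraries were left out.

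The count for the difference between lines, 44, was 0 with its 4 groups only, 16 with the replicate block, 0 with a spread per group, 5 with quantile normalization, 20 with library medians removed, 0 with trends removed, 253 without DHS under the 0.25 quantile of level, 1065 with wide DHS only, and 0 to 1938 when libraries were left out. That for Control, 159, was 0 with its groups only, 1 with its line only, 89 with the replicate block, 1 with a spread per group, 3 with quantile normalization, 7 with trends removed, 83 without those low DHS, and 3 to 934 when libraries were left out. The causes were not tested. Among 771 values of single sites under the alternatives, 8 changed sign, at the Lig4 sites over the start, whose differences were near 0, and at one Ldha site, at -0.24 in the shared fit: one Lig4 site gave -0.014 with library medians removed and -0.16 to 0.16 when libraries were left out, the other -0.029 to 0.13 when libraries were left out, and Ldha gave 0.031 with trends removed.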
